A study of Mus musculus with 6 samples.

Results

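Chemokine ligands and colony-stimulating factors were examined in the mouse uterus with and without Stat3. Every probe set annotated with a single gene symbol starting with Cxcl, Ccl, Cx3cl or Csf was taken. This gave 5 genes read by 6 probe sets, out of 987 genes and 1382 probe sets in the table: Cxcl10, Ccl5, Ccl9, Csf3 and Cxcl14. RefSeq (GRCm38.p6) holds 46 protein-coding mouse genes with these prefixes. The other members of the family, including Cxcl9, the fractalkine gene Cx3cl1 and the receptor genes Csf1r and Csf3r, were not analysed here.

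Total RNA came from whole uteri of female mice collected intact at 3.5 days post coitum, just before implantation, and was hybridised to Affymetrix arrays. The 3 Stat3 f/f arrays (replicates 1, 2 and 4) carry the floxed alleles and serve as controls, and the 3 Stat3 d/d arrays (replicates 1, 2 and 3) carry the deleted alleles. The sources used here give neither the Cre driver nor the uterine cells that lost Stat3, nor the age of the mice or the number of animals per array. The p-values therefore cover array-to-array spread alone, part or all of which may be technical. Stat3 itself read 262, 356 and 243 in the controls and 121, 101 and 131 in the Stat3 d/d arrays on its brighter probe set, so the mean was 41.0% of that of the controls; where that probe set lies relative to the deletion was not examined.

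The deposited probe sets are themselves a selection by this same contrast. Their group means all differ 1.5-fold or more and 0 have overlapping groups, so 100% of genes have groups that do not overlap and 100% pass an adjusted p of 0.05 in limma; 66.9% are higher and 33.1% lower in Stat3 d/d. The members' own passes therefore add nothing beyond their presence in the table. Such a selection favours large differences and small spread within groups, and limma takes its shared spread from these same probe sets. The changes given here may thus be too large, and the SEs, intervals and p-values too small. No correction was made for this. Intensities run from 2.47 to 4352 across all arrays. Of the fixed tissue markers, 1 of 7 epithelial genes (Cldn3), 1 of 7 stromal genes (Dcn), 0 of 5 smooth muscle genes and 0 of 4 endothelial genes were in the table, too few to check the tissue label. Both moved with the comparison: Cldn3 read 614 ± 153 in the controls and 1008 ± 82.3 in Stat3 d/d, and Dcn 27.6 ± 6.58 and 12.7 ± 2.71. After centring each array on its median, Cldn3 lost its call (log2 change 0.28, adjusted p = 0.267 in limma). Dcn kept it (-1.52, adjusted p = 0.000242 in limma). The part of these 2 genes in the changes of the members was not tested.

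Chemokines are small secreted proteins that bind G protein-coupled receptors on leukocytes and guide their movement. Cxcl10 is the classical interferon-induced chemokine: interferon signalling acts on interferon-stimulated response elements in its promoter, and NF-kappaB adds to that induction. Colony-stimulating factors control the production and survival of myeloid cells, and the receptor of granulocyte colony-stimulating factor, the product of Csf3, signals to a large extent through STAT3. In the uterus before implantation, chemokines and growth factors from epithelium and stroma act on resident macrophages, dendritic cells and natural killer (NK) cells.

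Promoter sequences were available for 3 of the 5 members in the RefSeq table of GRCm38.p6 (250 bases before to 50 after the annotated start): Cxcl10, Ccl9 and Cxcl14. Those of Cxcl10 and Cxcl14 are shown because these CXC ligands moved in opposite directions. Both lie on the minus strand, at chr5:92348840-92349139 for Cxcl10 and chr13:56296502-56296801 for Cxcl14. Capitals mark matches, on either strand, to GAAANNGAAA (interferon-stimulated response element type), TTCNNNGAA (STAT type), GGGNNNTTCC (NF-kappaB type) and TGANTCA (AP-1 type). No marked matches overlap.
Cxcl10: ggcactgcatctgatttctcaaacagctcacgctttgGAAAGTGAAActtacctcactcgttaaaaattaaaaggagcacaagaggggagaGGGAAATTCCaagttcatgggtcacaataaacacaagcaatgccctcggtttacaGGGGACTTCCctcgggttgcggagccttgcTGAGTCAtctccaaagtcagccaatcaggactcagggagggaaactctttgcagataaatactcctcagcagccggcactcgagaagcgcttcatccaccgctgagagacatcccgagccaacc
Cxcl14: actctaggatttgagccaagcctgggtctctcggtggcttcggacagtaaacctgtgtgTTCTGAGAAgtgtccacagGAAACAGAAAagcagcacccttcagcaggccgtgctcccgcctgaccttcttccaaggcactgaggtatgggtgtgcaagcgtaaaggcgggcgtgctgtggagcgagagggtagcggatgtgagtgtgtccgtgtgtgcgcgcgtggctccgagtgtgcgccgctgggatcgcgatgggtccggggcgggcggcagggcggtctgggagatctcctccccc

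The Cxcl10 promoter held GAAAGTGAAA, starting 213 bases before the start, then GGGAAATTCC at 159, GGGGACTTCC at 104 and TGAGTCA at 74. The Cxcl14 promoter, of the gene that fell, also held a match of the interferon type, GAAACAGAAA, at 172 bases before the start, and a STAT type match, TTCTGAGAA, at 191. The Ccl9 promoter held 1 match of the AP-1 type and 1 of the NF-kappaB type, at 53 and 35 bases before the start. Among all 32851 promoters of that length, the interferon type was in 3.44%, the STAT type in 8.30%, the NF-kappaB type in 5.56% and the AP-1 type in 7.81%. These motifs were chosen after the promoters had been read, and a match describes letters only.

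The interferon-induced ligand in the table, Cxcl10, rose in Stat3 d/d. Its product attracts activated T cells and NK cells through the receptor Cxcr3. Cxcl10 intensity was 10.6, 8.65 and 8.65 in Stat3 f/f replicates 1, 2 and 4, and 26.1, 27.1 and 48.6 in Stat3 d/d replicates 1, 2 and 3. The groups did not overlap, and the lowest Stat3 d/d array was 2.46 times the highest Stat3 f/f array. The mean rose from 9.30 ± 1.13 to 33.9 ± 12.8 (SD, n = 3 arrays each), a log2 change of 1.71 with a 95% interval from 1.18 to 2.24 (limma, log2(intensity + 1), adjusted p = 0.000185). The ratio of the arithmetic means was 3.65. The fit, on means of log2(intensity + 1), gave 3.27-fold, and its log2 change was 1.81 without the added 1. Stat3 d/d replicate 3 stood highest, at 5.23 times the Stat3 f/f mean against 2.80 and 2.91 for the others. Whole-uterus RNA cannot tell a change in the number of cells making a transcript from a change in the amount per cell. Of the 660 genes of the table that rose, Cxcl10 had the 83rd largest log2 change.

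Cxcl10 was the only one of the 3 core interferon-induced ligands (Cxcl9, Cxcl10 and Cxcl11) in the table; RefSeq lists mouse Cxcl11 as a transcribed pseudogene. Of the wider list of 9, which adds Ccl2, Ccl5, Ccl7, Ccl8, Ccl12 and Cxcl16, Cxcl10 and Ccl5 were in it. The next protein-coding gene to Cxcl10 in the RefSeq order on chromosome 5, Art3, also rose, from 23.5 ± 2.44 to 47.6 ± 5.34; it encodes a member of the mono-ADP-ribosyltransferase family and was named after its value was seen. The other neighbour in that order, Nup54, was not analysed here.

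**Figure D1:**
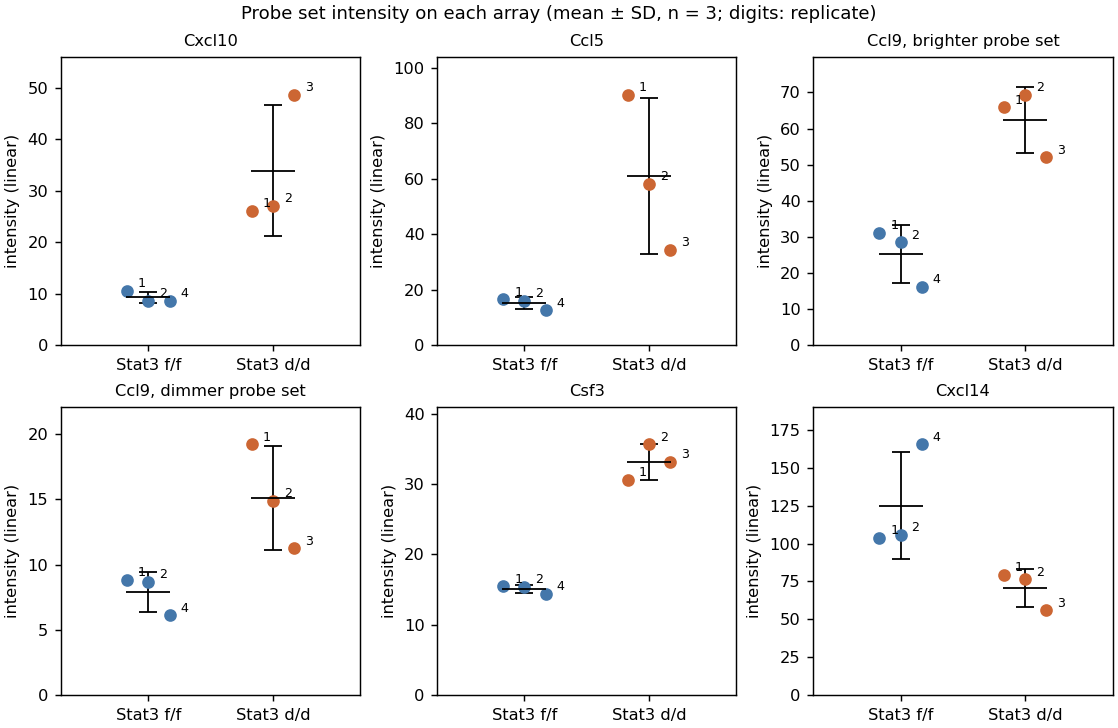
Intensity (linear scale, from 0) of the 6 member probe sets on the 3 Stat3 f/f and 3 Stat3 d/d arrays; each point is an array with its replicate number, and bars give the mean ± SD. Stat3 d/d lies above Stat3 f/f without overlap in all panels but Cxcl14, where it lies below, and Cxcl10 is highest in Stat3 d/d replicate 3 (48.6) while Ccl5 is highest in replicate 1 (90.2).

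The CC chemokines Ccl5 and Ccl9 also rose. Ccl5, the ligand known as RANTES, is made by T and NK cells among others and attracts leukocytes. Its intensity was 16.6, 16.1 and 12.7 in Stat3 f/f replicates 1, 2 and 4, and 90.2, 58.3 and 34.4 in Stat3 d/d replicates 1, 2 and 3. The Stat3 d/d arrays all lay above the controls but differed 2.63-fold among themselves, with replicate 1 highest. The Ccl5 mean was 15.1 ± 2.15 in Stat3 f/f against 61.0 ± 28.0, which is 1.85 on the log2 scale (SE 0.30, adjusted p = 0.000429 in limma), the largest of the 5 members as fitted. Its 95% interval, 1.19 to 2.50, covers most of that of Cxcl10.

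Ccl9, a mouse CC chemokine that binds Ccr1 and acts on myeloid cells, was the only member with 2 probe sets. The brighter read 31.1, 28.5 and 16.2 in Stat3 f/f against 65.9, 69.4 and 52.0 in Stat3 d/d, a log2 change of 1.31 (SE 0.24, adjusted p = 0.000918 in limma). The dimmer read 8.85, 8.66 and 6.12 in Stat3 f/f against 19.2, 14.9 and 11.3 in Stat3 d/d, a change of 0.85 (SE 0.22, adjusted p = 0.00458 in limma). Both had their lowest control value in Stat3 f/f replicate 4 and their lowest Stat3 d/d value in replicate 3. The dimmer probe set lost its call after quantile normalization (0.36, adjusted p = 0.167) and after median centring (0.38, adjusted p = 0.146). In the RefSeq order on chromosome 11, Ccl5 and Ccl9 are adjacent protein-coding genes, followed by Ccl6, Ccl3 and Ccl4, which were not analysed here.

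Csf3, encoding the growth factor that drives granulocyte production, rose with the least spread of any member. Its intensity was 15.5, 15.4 and 14.4 in Stat3 f/f against 30.6, 35.7 and 33.2 in Stat3 d/d. The coefficient of variation was 3.90% over the controls and 7.68% over the Stat3 d/d arrays, where Cxcl10 had 12.2% and 37.6%. The mean went from 15.1 ± 0.59 to 33.2 ± 2.55, a log2 change of 1.08 with a 95% interval from 0.73 to 1.43 (limma, adjusted p = 0.000242). Of the 12 neutrophil markers on the fixed list, among them S100a8, S100a9, Ly6g and the receptor gene Csf3r, 0 were in the table. Since the table holds only probe sets selected for a group difference, their absence does not show whether neutrophil transcripts changed.

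Cxcl14 was the member that fell. It encodes a CXC chemokine expressed constitutively in many epithelia. Its intensity was 104, 106 and 166 in Stat3 f/f replicates 1, 2 and 4, and 79.6, 76.3 and 56.0 in Stat3 d/d replicates 1, 2 and 3. The groups did not overlap, but the nearest arrays differed only 1.30-fold, and Stat3 f/f replicate 4 stood well above the other controls. The mean fell from 125 ± 35.2 to 70.6 ± 12.8, a log2 change of -0.80 (SE 0.23, 95% interval from -1.30 to -0.30, adjusted p = 0.00648 in limma); it was -0.58 without Stat3 f/f replicate 4 and -1.26 after centring each array on its median.

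**Figure D2:**
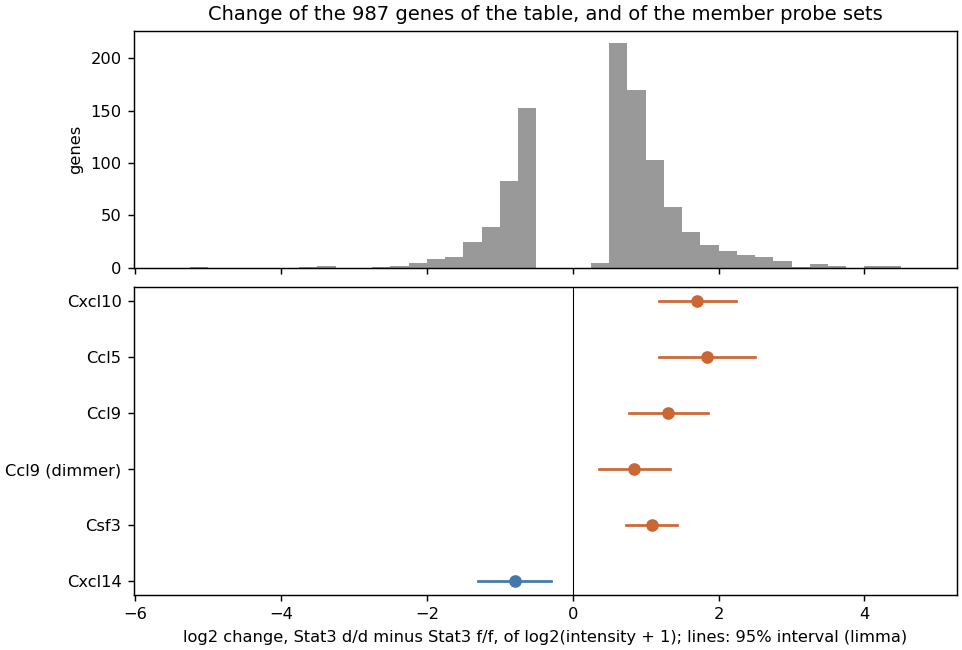
Top, number of genes of the table (987) by log2 change, Stat3 d/d minus Stat3 f/f; bottom, the change of each member probe set with its 95% interval from limma on the same axis. The gap around 0 shows the selection of the table; Cxcl10 (1.71) and Ccl5 (1.85) lie to the right of the other members and Cxcl14 (-0.80) to the left of 0.

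In all, 4 of the 5 members rose and 1 fell, beside 66.9% higher and 33.1% lower over all genes of the table. Their log2 changes ran from -0.80 to 1.85, where the median of all genes was 0.70. With 45000 tests assumed in the adjustment, about the size of such an array, 4 members passed (Cxcl10 at an adjusted p of 0.00603, Csf3 at 0.00788, Ccl5 at 0.0140 and Ccl9 at 0.0299), beside 35.8% of all genes, and Cxcl14 did not (0.211). At least 2-fold higher by the fit were 4 members, beside 27.5% of all genes. After median centring Cxcl10 (1.24) and Ccl5 (1.38) stayed above 2-fold, while Ccl9 (0.85) and Csf3 (0.62) did not. The median of all genes was then 0.23.

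Interferon-induced ligands were then set beside the others. With the core list, Cxcl10 changed by 1.71 and the other 4 members had a median of 1.20. With the wider list, Cxcl10 and Ccl5 had a median of 1.78, and Csf3, Ccl9 and Cxcl14 one of 1.08. These are descriptions of few genes. Between Cxcl10 and Csf3 the difference of changes was 0.62 on the log2 scale. Relative to the Stat3 f/f mean, the Cxcl10 minus Csf3 difference was 0.15, -0.12 and -0.03 in Stat3 f/f against 0.43, 0.26 and 1.19 in Stat3 d/d, so it was higher in 3 of 3 Stat3 d/d arrays. The exact two-sided permutation test gave p = 0.1, the smallest that this test can give with 3 arrays against 3, so it cannot pass 0.05 here. Without Stat3 d/d replicate 3 the difference was 0.34.

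The members did not share one order of arrays. Within Stat3 d/d, Cxcl10 was 2.27, 1.45 and 1.40 above the Stat3 f/f mean (log2) in replicates 3, 2 and 1, while Ccl5 was 1.14, 1.89 and 2.51 above it in the same arrays. The array with the most Cxcl10 thus had the least Ccl5. Leukocyte markers, as a sum, followed the Ccl5 order. Over the fixed leukocyte lists, 21 of 63 genes were in the table, all 21 higher in Stat3 d/d beside 66.9% of all genes. Of these, 13 stayed past the threshold after quantile normalization, 14 after median centring and 11 with 45000 assumed tests. Over all 987 genes, 301 higher and 327 lower stayed past it after quantile normalization, and 290 and 327 after median centring. With 45000 assumed tests 35.8% of all genes did. The summed intensity of the 21 markers was 2290, 1748 and 1397 in Stat3 d/d replicates 1, 2 and 3. In Stat3 f/f replicates 1, 2 and 4 it was 850, 731 and 563. Taken singly, Klrd1 and Eomes were highest in Stat3 d/d replicate 2, and Fcgr1 and Klrk1 were lowest there. The other markers kept the Ccl5 order. These values share their arrays and scaling, and with 3 arrays a group no correlation was computed.

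By cell type, 8 of 10 NK cell markers were in the table, with sums from 87.9 to 149 in Stat3 f/f and from 336 to 534 in Stat3 d/d, lowest there in replicate 3. Klrd1, Ncr1 and Gzmb were among them; Gzmb, a granzyme of cytotoxic cells, rose from 21.6 ± 10.9 to 113 ± 38.4. Of the macrophage and monocyte markers 5 of 12 were in the table, summing to between 184 and 277 in Stat3 f/f and between 409 and 780 in Stat3 d/d. Dendritic cell markers (2 of 7) summed to between 11.6 and 14.1 against between 30.7 and 35.5, T cell markers (2 of 7) to between 11.0 and 12.5 against between 15.6 and 33.0, and pan-leukocyte markers (3 of 3) to between 251 and 381 against between 577 and 858. The B cell marker Ighm (1 of 5) read from 15.9 to 25.1 in Stat3 f/f and from 28.7 to 49.6 in Stat3 d/d, and 0 of 7 eosinophil and mast cell markers were in the table. Some markers were dim in Stat3 f/f, near the lowest intensity of the whole table (2.47). Among them, the Stat3 f/f mean was 4.12 for Cd3g, 5.80 for Itgax and 6.27 for Klrk1. The part of these cells in the rises of Cxcl10, Ccl5, Ccl9 and Csf3 was not tested.

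**Figure D3:**
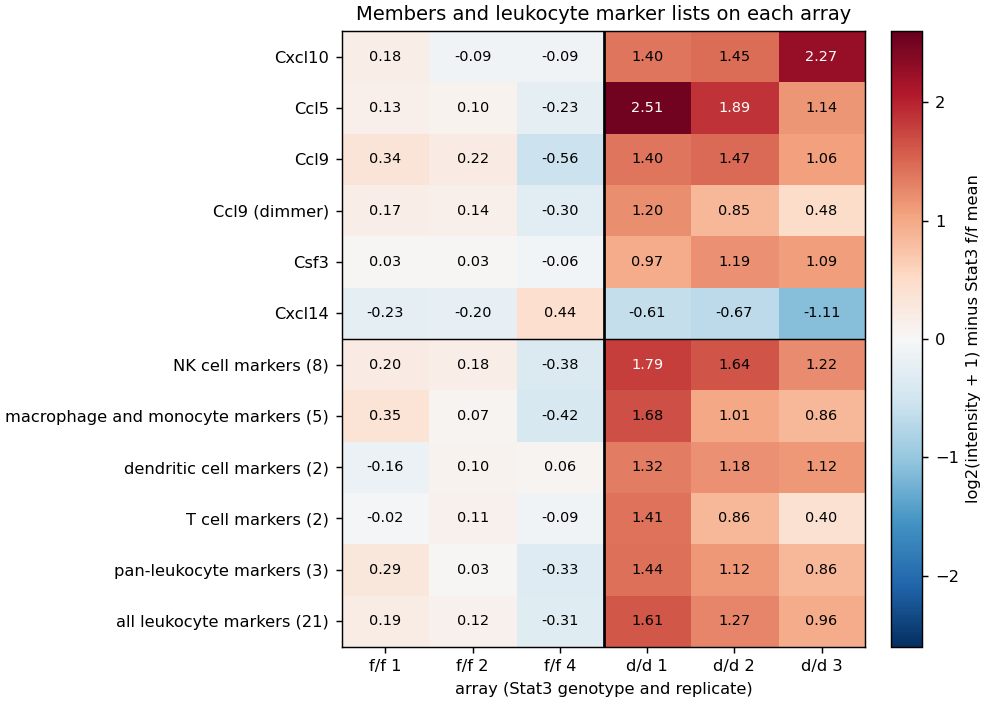
Each cell is log2(intensity + 1) on an array minus the Stat3 f/f mean, for the 6 member probe sets (top) and the mean over the genes of each leukocyte marker list (bottom, number of genes in brackets). In Stat3 d/d the NK cell markers and Ccl5 (2.51, 1.89, 1.14) are highest in replicate 1 and lowest in replicate 3, Cxcl10 is highest in replicate 3 (2.27), and Csf3 differs little between these arrays (0.97, 1.19, 1.09).

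Of 22 chemokine receptor genes, 3 were in the table, all 3 higher, with a median of 0.94, beside 66.9% higher and a median of 0.70 over all genes. Cxcr3, the receptor for Cxcl10, went from 7.04, 7.88 and 7.49 in Stat3 f/f to 15.1, 11.3 and 9.32 in Stat3 d/d (0.58, SE 0.19, adjusted p = 0.0128 in limma), and after median centring this was 0.12 (adjusted p = 0.581). Its Stat3 d/d order followed Ccl5 and not Cxcl10, with replicate 3 lowest. Ccr2, a receptor for Ccl2 and related ligands that brings monocytes into tissues, went from 38.1 ± 17.0 to 88.0 ± 22.2 (1.25, SE 0.31). Ackr1, a receptor that binds chemokines without signalling and is found on venules and red cells, went from 32.6 ± 8.55 to 63.5 ± 15.4 (0.94, SE 0.24), and also lost its call after centring (0.48, adjusted p = 0.102). Ccr1, the receptor of Ccl9, was not analysed here.

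Of 20 regulators of Cxcl10 on the fixed list, 5 were in the table, 4 higher and 1 lower, near the 66.9% and 33.1% over all genes. Irf7, the interferon-induced factor that amplifies type I interferon production, read 22.1, 42.9 and 37.8 in Stat3 f/f against 94.3, 132 and 85.9 in Stat3 d/d (1.60, SE 0.26, adjusted p = 0.000434 in limma). Irf8, a factor of myeloid cells, changed by 0.87 (SE 0.19), Jak2, a kinase of cytokine receptors, by 0.68 (SE 0.17), and Irf9, a DNA-binding factor of type I interferon signalling, by 0.60 (SE 0.17); after median centring these were 0.40, 0.21 and 0.13, none past the threshold. Irf3, which is activated by nucleic acid sensors and can induce Cxcl10 directly, fell from 26.8 ± 2.40 to 16.9 ± 1.74 (-0.64, SE 0.17). Its arrays did not overlap, and its direction was opposite to that of Cxcl10. Irf1 was not analysed here.

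For Csf3, 2 of 13 listed regulators were in the table, and both fell, beside 33.1% lower over all genes. These were Stat3, the deleted gene itself, and Cebpb, a transcription factor that drives Csf3 in several cell types. Cebpb read 310, 246 and 298 in Stat3 f/f against 172, 195 and 150 in Stat3 d/d (-0.72, SE 0.18, adjusted p = 0.00363 in limma). Csf3 and Cebpb thus differed in opposite directions between the groups; within Stat3 d/d, replicate 2 had the highest value of both. Of 17 other genes of the haematopoietic growth factor family, 1 was in the table: Il15, which supports NK cells, read 20.7, 21.5 and 19.9 in Stat3 f/f against 52.0, 43.4 and 43.5 in Stat3 d/d (1.12, SE 0.16), a change near that of Csf3 (1.08, SE 0.16).

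**Figure D4:**
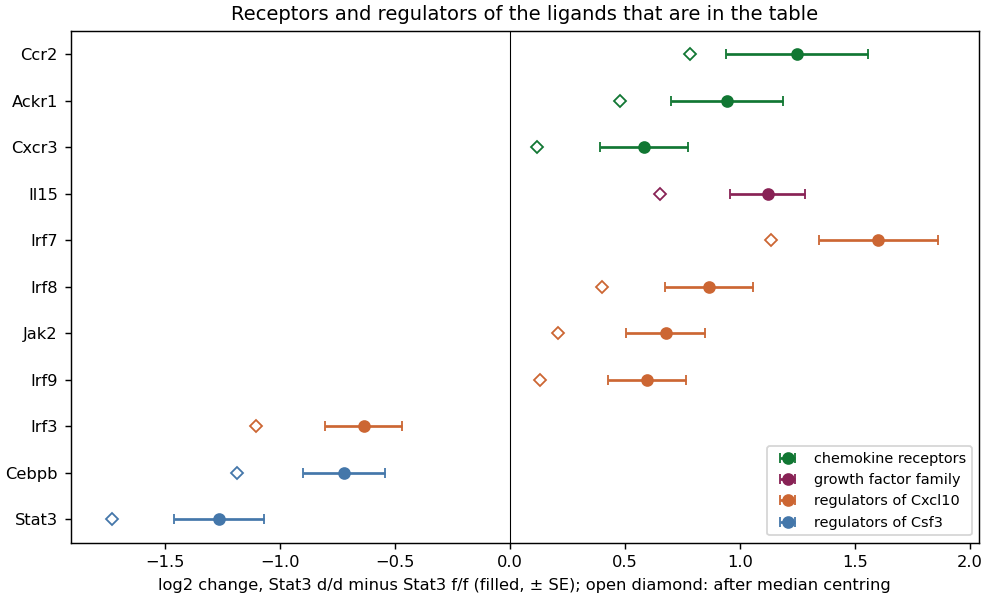
Log2 change, Stat3 d/d minus Stat3 f/f, of the receptors, the growth factor gene and the regulators that were in the table (filled points ± SE) and the same after centring each array on its median (open diamonds). Irf7 (1.60) and Ccr2 (1.25) lie farthest right, Irf3, Cebpb and Stat3 lie left of 0, and centring moves every gene to lower values.

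By Pearson correlation of log2 values over the 6 arrays, the genes most like Cxcl10 were Pclaf (r = 0.996), which encodes a PCNA-binding factor, the serotonin receptor gene Htr1b (0.995), Extl2 (0.994), Amacr (0.994) and Pcdh17 (0.993). Those most like Csf3 were the tripartite motif gene Trim30d (0.996), Ces1e (0.995), Tmem267 (0.994), the prostaglandin E2 receptor gene Ptger2 (0.994) and the NK receptor gene Klra8 (0.994). All genes of the table were selected for a group difference on these arrays, so high values are common: 251 of 949 genes passed 0.9 with Cxcl10 and 347 with Csf3. Among the members, Csf3 was at 0.943 with Cxcl10, Ccl9 at 0.825, Ccl5 at 0.757 and Cxcl14 at -0.909.

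The size of the changes depended on scaling and on the pseudocount, and no member changed direction. Of all 987 genes of the table, 0 changed direction after quantile normalization and 0 after median centring. Quantile normalization and median centring moved the median of all probe sets from 0.70 to 0.25 and 0.24. After median centring Cxcl10 stood at 1.24, Ccl5 at 1.38, Ccl9 at 0.85, Csf3 at 0.62 and Cxcl14 at -1.26, all still past the threshold. Of all 987 genes, 290 of the 660 that rose and all 327 that fell passed it then. With a pseudocount of 16 in place of 1, Cxcl10 was at 0.95 and Csf3 at 0.66.

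**Figure D5:**
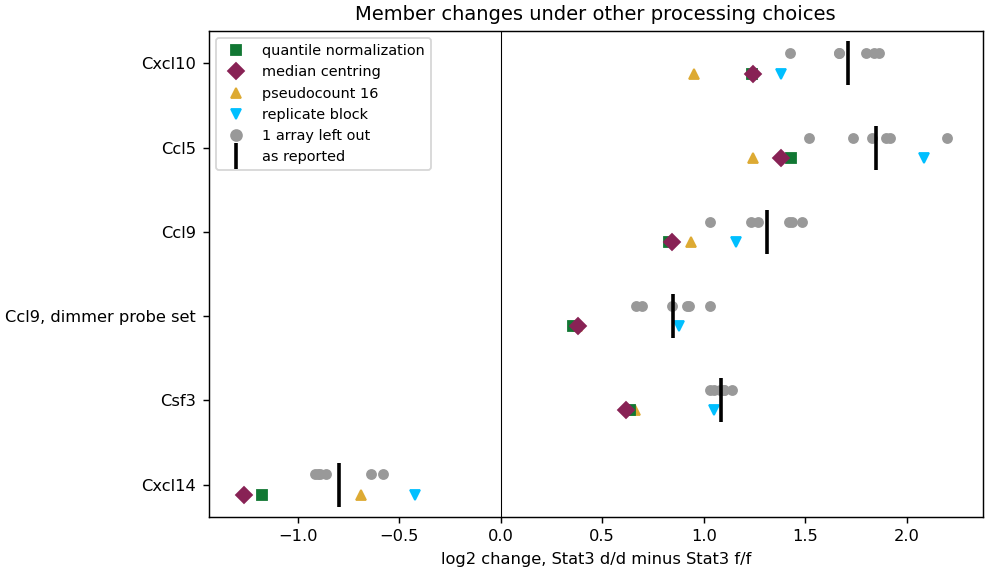
Log2 change, Stat3 d/d minus Stat3 f/f, of each member probe set as reported (black bar), with 1 array left out (grey points) and under 4 other settings (coloured). All values stay on their side of 0, as did those of all 987 genes after quantile normalization and median centring. Cxcl10 ranges from 0.95 to 1.86 and Csf3 from 0.62 to 1.14 over all settings run.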

How the data were processed

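The authors deposited 1 value per probe set and array: normalized intensities on a linear scale. RMA, the robust multi-array average, is given without a version in the submitters' processing notes; a return from its log2 scale and the selection of probe sets are recorded in no source used here. Platform annotation named 1191 probe sets with 1 symbol, 57 with several and 134 with none; 2 probe sets with a Ccl symbol among several were left out. Values were taken as log2(intensity + 1) and fitted over all 1382 probe sets with limma 3.58.1 in R 4.3.3 (lmFit, eBayes, no covariate, Benjamini-Hochberg, threshold 0.05). The probe set with the highest mean stood for a gene. The fit was also run on simulated data without the selection of probe sets, which does not check the p-values of this selected table. The number of arrays limits precision.

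Members, gene lists and tests were chosen with earlier results of these data known. Named genes were every member, Stat3, every listed regulator, receptor or growth factor gene in the table, and the 5 genes most correlated with Cxcl10 and with Csf3, leaving out predicted genes. Art3 and the marker genes given singly were named after their values were seen. Alternatives covered pseudocounts, scaling, array weights, left-out arrays, variance models, dropping the dimmest probe sets, the replicate number as a block, 45000 assumed tests and the mean of probe sets. Promoters are RefSeq's, GRCm38.p6.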

Additional observations from a re-analysis of the deposited data

How the results depend on the processing

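Cxcl10, Csf3, Ccl5 and the brighter Ccl9 probe set kept their direction and stayed past the threshold under all 18 alternatives, with adjusted p from 0.000113 to 0.0131 for Cxcl10 and from 0.000225 to 0.00788 for Csf3. In this selected table most alternatives left nearly every probe set past it, and 0 of the 987 genes changed direction under either scaling. All 1382 passed without a pseudocount and with an intensity trend, robust moderation or array weights, and 1317 with a pseudocount of 16. After quantile normalization 887 passed, after median centring 873, and with 45000 assumed tests 518. Leaving out 1 array at a time gave 1.43 to 1.86 for Cxcl10, 1.03 to 1.14 for Csf3, 5 members past the threshold each time, and 0.34 to 0.81 for the Cxcl10 minus Csf3 difference, which was 0.29 with a pseudocount of 16 (exact p from 0.1 to 0.2). In those fits with 1 array left out, 1347 to 1377 of all 1382 probe sets passed. Cxcl14 lost its call with 45000 assumed tests and with the block below; the dimmer Ccl9 probe set lost it under both scalings and with 45000 assumed tests. Replicate numbers 1 and 2 occur in both groups, but same-numbered arrays deviated together only weakly (r = 0.09 and 0.03 over all probe sets), and nothing else pairs them. With the replicate number as a block, which leaves the unshared arrays without weight, Cxcl10 was at 1.38, Csf3 at 1.05, Ccl5 at 2.08 and Cxcl14 at -0.42 (adjusted p = 0.0895), and 4 of 5 members passed. Of all 1382 probe sets, 1284 passed with that block. The table holds no signal of unselected probe sets, so the scaling between arrays and the background level could not be checked; Cxcl10 in Stat3 f/f, at 8.65 to 10.6, is closest of the brighter member probe sets to the lowest intensity (2.47).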

Other observations

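The 2 probe sets left out because their annotation joins a Ccl symbol with several others were both lower in Stat3 d/d. The first read 37.8, 48.6 and 49.1 in Stat3 f/f and 27.9, 23.3 and 33.8 in Stat3 d/d, a log2 change of -0.66. The second read 28.1, 30.4 and 36.0 against 18.0, 17.0 and 22.0, a change of -0.70. Since the annotation lists several genes for each, no gene is named from them.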
